A study of Homo sapiens with 45 samples.

Results

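SH-SY5Y cells treated with palbociclib for 5 days were compared with control cells of the same line by RNA-seq, in 10 of the 45 libraries of the study: 5 treated (5 d PB) and 5 control. Palbociclib (PB) blocks the kinases CDK4 and CDK6, and was given at 1 μM from a stock dissolved in DMSO. The vehicle given to these controls is not stated in the labels, and the controls were collected together with cells treated for 24 h, so time in culture also separates the groups and cannot be told apart from PB. SH-SY5Y is an established human neuroblastoma line of the adrenergic (ADRN) type, without MYCN amplification, and stands for 1 tumour. All groups grew in DMEM/F12 with 10% FBS, and replicates were separate passages plated in independent experiments. The 5 libraries of the 24 h PB group were fitted together with the 10 compared libraries. They thus entered the gene filter and the error estimates behind the 5 d results, and their levels are given only where named. The 10 libraries of the control and 5 d PB groups of a second ADRN line, IMR-32, were used only where named. The comparison with IMR-32 came from a fit of all 45 libraries, which also held the remaining line of the study. Every gene with enough counts entered the comparison of 5 d PB with control, 14547 of the 29159 in the count table.

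In a dividing cell, D cyclins with CDK4 or CDK6 phosphorylate the RB family (RB1, RBL1, RBL2), which releases E2F transcription factors to switch on genes of DNA synthesis. A second layer of factors, MYBL2, FOXM1 and the MuvB core, then drives genes of mitosis. Neuroblastoma arises from sympathetic neuroblasts, and ADRN cells keep transcription factors of that lineage such as HAND2 and GATA3, while cells of the mesenchymal type express genes of motility and matrix.

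Libraries held 18913702 to 23692289 counts in control and 16556335 to 20711967 at 5 d, and replicates varied by 11.2% (biological coefficient of variation). Levels are given as normalised CPM, the count scaled to library size with TMM factors. Markers of the labelled ADRN type were present with 1 exception. PHOX2A, HAND2, GATA2, GATA3, ISL1 and DBH were abundant in every library, whereas TH, which encodes the first enzyme of catecholamine synthesis, stayed below 1 CPM in all of them. The first principal component (57.4% of the variance) put the controls at −49.6 to −38.2 and the treated libraries at 51.7, 41.6, 30.2, 27.5 and 17.0 for replicates 1 to 5. Treated libraries were thus spread more widely than controls, and the chi-square statistic per degree of freedom between pairs of libraries reached 42.1 among them against 14.4 among controls. No pair was within sampling noise. In bulk RNA, fewer cells of a kind and less RNA per cell cannot be told apart.

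At 5 d, 5225 genes were called, 2712 higher (18.6% of those tested) and 2513 lower (17.3%), where a gene is called if its adjusted p was below 0.05 and its log2 fold change passed 0.5 in size. Of these, 1125 rose and 976 fell more than 2-fold, and 197 rose and 205 fell more than 4-fold. The 5 treated libraries lay wholly above the 5 controls for 3403 genes (23.4%) and wholly below them for 3461 (23.8%). The median over all genes was 0.01. With library sizes alone in place of TMM factors, 3176 genes were called higher and 2132 lower. Without treated replicate 1, 4941 genes were called, and without treated replicate 5, 5580. A fit of the 10 compared libraries alone, without those of 24 h, called 5099.

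**Figure D1:**
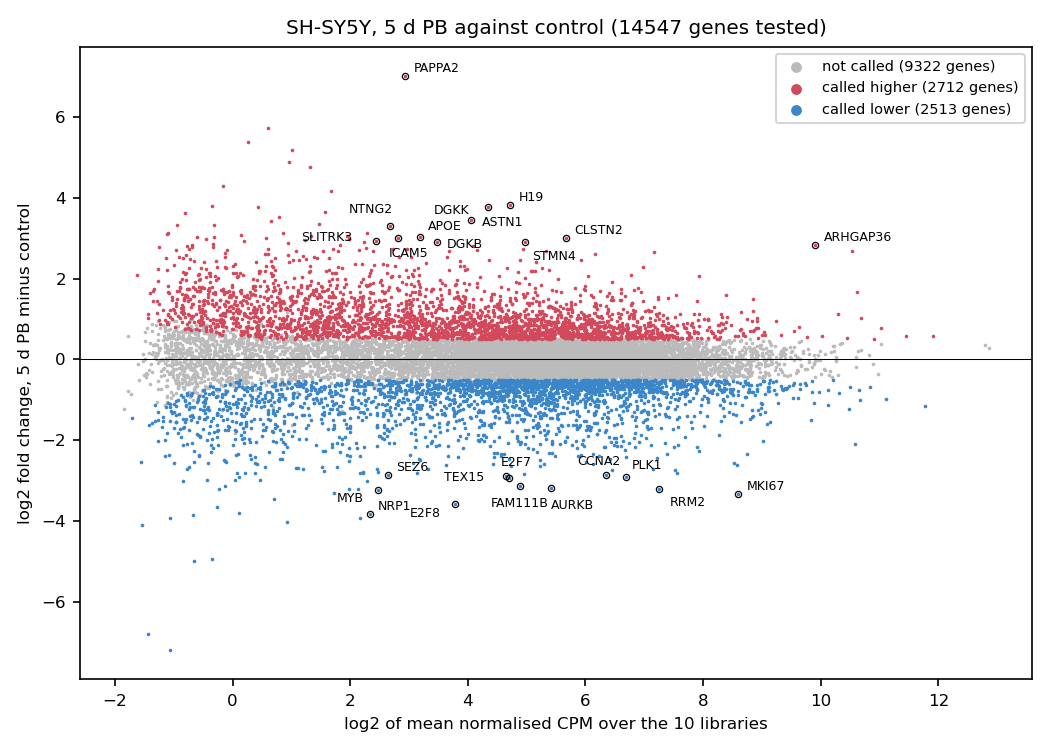
Log2 fold change at 5 d (5 d PB minus control) of each of the 14547 tested genes against the log2 of its mean normalised CPM over the 10 libraries. Red points are the 2712 genes called higher and blue points the 2513 called lower. Circles mark the 12 largest rises and 12 largest falls among genes of at least 5 CPM whose groups do not overlap, from PAPPA2 at 7.02 to NRP1 at −3.82.

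The 12 largest rises included genes of secreted, adhesion and signalling proteins. PAPPA2, a protease that cleaves IGF-binding proteins (chr1:176432307-176814737 on GRCh37), stood at 0.0426, 0.16, 0.213, 0.0987 and 0.05401 CPM in the 5 controls and at 18.97, 21.4, 21.7, 8.57 and 5.24 CPM in the 5 treated libraries. It was near the limit of detection in every control, and the log2 fold change was 7.02 ± 0.64 (standard error, adjusted p 2.1e-07). H19, an imprinted long non-coding RNA (chr11:2016396-2025782), went from 1.83, 4.16, 2.82, 5.77 and 3.02 CPM to 63.5, 57.98, 69.8, 38.4 and 17.1 CPM (3.82 ± 0.38, adjusted p 7.4e-07). Every treated library lay above every control, with treated replicate 5 the lowest. IGF2, the imprinted neighbour of H19, was not called (0.44 ± 0.43), and was looked at after its values were known. DGKK, a diacylglycerol kinase (chrX:50108408-50213824), stood at 3.36, 3.68, 1.59, 3.31 and 1.89 CPM in control and at 34.3, 44.8, 38.1, 37.6 and 34.8 CPM after treatment (3.76 ± 0.21, adjusted p 4.2e-10), a narrow band in which the 5 treated libraries were alike. A second diacylglycerol kinase, DGKB, rose by 2.91 ± 0.24. ARHGAP36, which has a GTPase-activating protein domain, rose from 213, 296, 255, 247 and 181 CPM to 1417, 1842, 2245, 1633 and 1281 CPM (2.82 ± 0.19, adjusted p 4.5e-09).

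Several of the other large rises encode proteins of neuronal contact. ASTN1, used by migrating neurons, rose by 3.46 ± 0.22, NTNG2 (netrin-G2) by 3.31 ± 0.24, CLSTN2 (calsyntenin 2) by 3.0 ± 0.45, ICAM5 (telencephalin) by 2.99 ± 0.43 and SLITRK3, a synaptic adhesion protein, by 2.93 ± 0.43 on the log2 scale. CLSTN2 was uneven among treated libraries, at 103, 166, 111, 41.2 and 30.3 CPM against 9.66, 18.5, 7.17, 12.9 and 8.32 CPM in control. APOE, a lipid carrier, rose from 1.97 ± 0.862 to 16.2 ± 6.404 CPM (mean ± SD, n = 5 libraries each) (3.04 ± 0.35, adjusted p 1.8e-06). STMN4, a neuronal stathmin that binds tubulin, went from 9.75, 9.23, 8.45, 4.89 and 4.43 CPM to 49.95, 56.8, 60.9, 55.9 and 55.3 CPM (2.92 ± 0.25, adjusted p 1.2e-07), with little spread after treatment.

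Most of the 12 largest falls were of genes of the dividing cell, and each was called lower at 24 h too. MKI67, the proliferation antigen Ki-67 (chr10:129894923-129924687), stood at 827, 582, 535, 817 and 761 CPM in control and at 10.7, 45.3, 68.5, 113 and 111 CPM after 5 d (−3.34 ± 0.51, adjusted p 5.1e-05). All treated libraries lay below all controls, but they ranged widely among themselves. RRM2, the small subunit of ribonucleotide reductase, went from 313, 246, 269, 261 and 289 CPM to 4.62, 13.8, 31.3, 40.3 and 59.98 CPM (−3.21 ± 0.45, adjusted p 2.5e-05), with treated replicate 1 again the lowest. The atypical E2F repressors E2F7 and E2F8 fell by 2.95 ± 0.18 and 3.59 ± 0.38, and MYB, AURKB, FAM111B, PLK1 and CCNA2 had log2 fold changes of −3.23, −3.19, −3.14, −2.91 and −2.87. TEX15, a germ cell gene, and SEZ6, which encodes a neuronal membrane protein, were lower too (−2.90 and −2.87). NRP1, a receptor of semaphorins and VEGF (chr10:33466420-33625190), had the largest fall among genes with a mean of at least 5 CPM, from 13.7, 8.16, 9.62, 5.58 and 10.05 CPM to 0.744, 0.593, 0.9003, 0.109 and 0.953 CPM (−3.82 ± 0.32, adjusted p 2.3e-08). It has 561 exon bases under an exon of the opposite strand, and the sources used here do not give the strand counted. Such overlap affected 64 of the 158 genes chosen by the naming rule, 21 of them by at least 500 bases, among them PLK1, CDKN2C, TYMS and CCNE2.

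**Figure D2:**
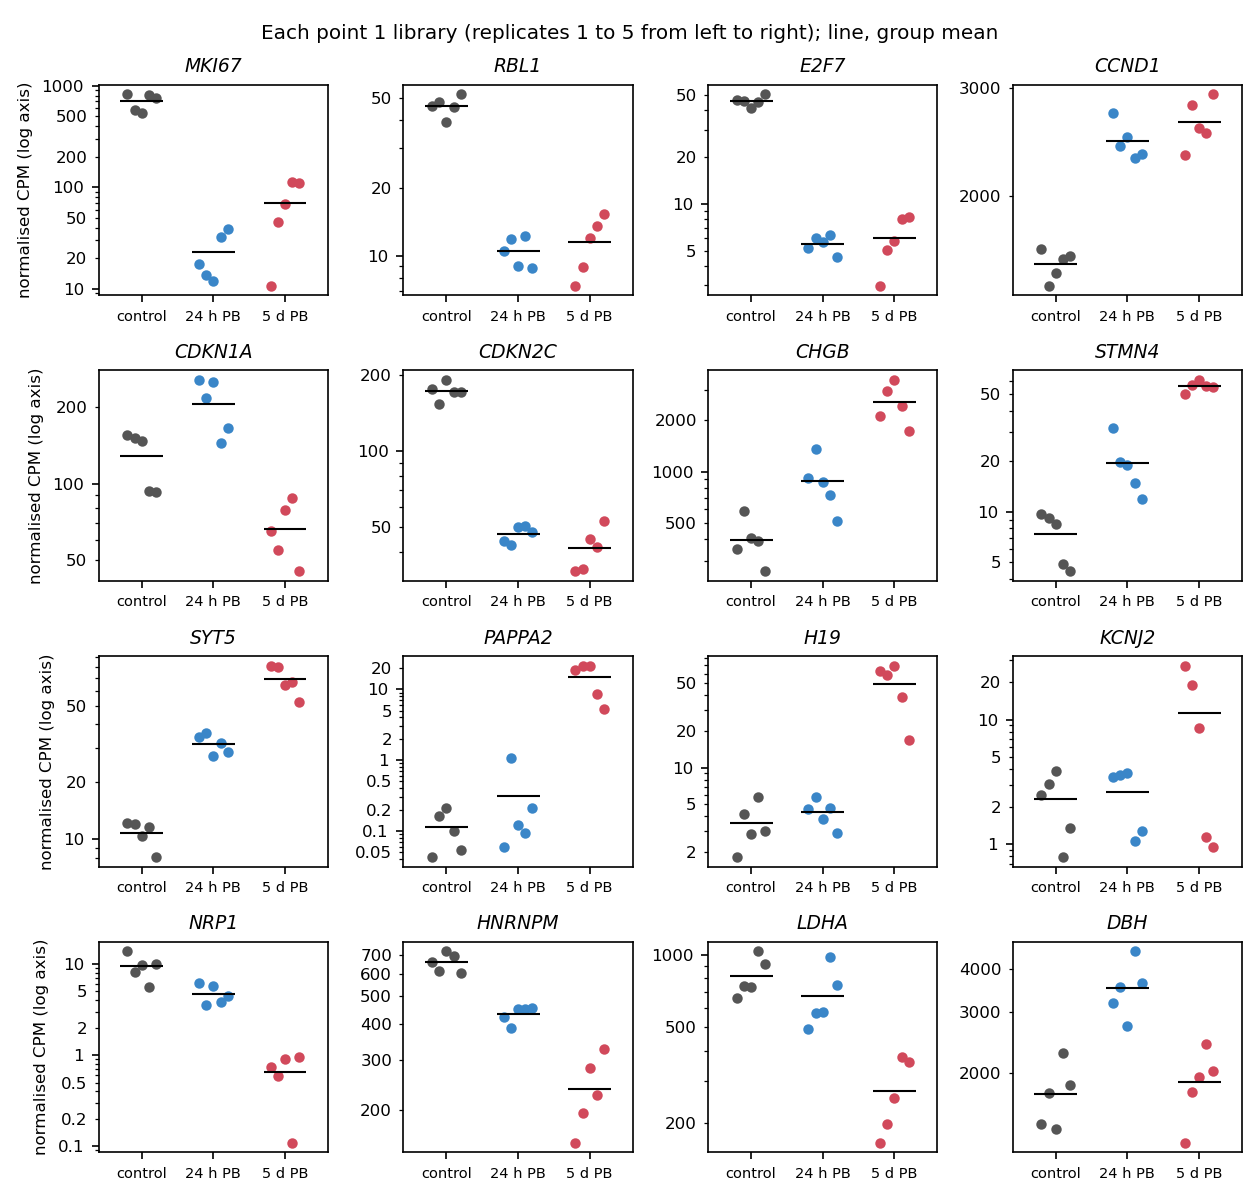
Normalised CPM on a log axis of 16 genes in each SH-SY5Y library, grouped as control, 24 h PB and 5 d PB. Points are libraries (replicates 1 to 5 from left to right) and lines are group means. MKI67 at 5 d runs from 10.7 to 113 CPM and CDKN1A is higher at 24 h but lower at 5 d, while the group means of CHGB, STMN4 and SYT5 are higher at each later time.

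Of 7 tested genes of the D cyclins, CDK4/6 and the RB family, 2 were called higher and 1 lower (median −0.30, 28.6% higher and 14.3% lower against 18.6% and 17.3% of all genes). CDK4 and CDK6 had log2 fold changes of −0.35 ± 0.09 and 0.08 ± 0.10 and RB1 of −0.30 ± 0.07, none past the fold limit, and CCND3 had −0.45. CCND1 (cyclin D1) rose, from 1638, 1429.6, 1499, 1578 and 1596 CPM to 2337, 2820.5, 2588, 2538 and 2936 CPM (0.77 ± 0.08, adjusted p 1.1e-07), and the groups did not overlap. The pocket protein RBL2 was higher (0.51 ± 0.07) and RBL1 lower (−2.01 ± 0.16), the former with 1330 exon bases under genes of the opposite strand. RBL1 went from 46.1, 48.1, 39.1, 45.5 and 52.1 CPM to 7.39, 8.95, 12.04, 13.6 and 15.4 CPM. The call of RBL2 was lost without treated replicate 1, treated replicate 2 or control 4 (0.45 to 0.48), and without treated replicate 5 the lower count was 2. CDK4 also has 1369 such bases.

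Of 7 tested genes named for CDK inhibition, 6 were called lower and 0 higher (median −0.94, 0% higher and 85.7% lower against 18.6% and 17.3% of all genes). CDKN2C (p18) stood at 177, 154, 191, 171 and 172 CPM in control and 33.5, 34.3, 44.8, 41.8 and 52.8 CPM at 5 d (−2.06 ± 0.10, adjusted p 9.0e-11). CDKN3, which despite its name encodes a phosphatase of CDKs, fell by 1.97 ± 0.22, CDKN2A by 1.32 ± 0.30, CDKN1B (p27) by 0.84 ± 0.05 and CDKN1C (p57) by 0.62 ± 0.20 on the log2 scale. CDKN2D was not called (0.32 ± 0.12). CDKN1A (p21) was the exception in time. Its levels were 155, 152, 147, 93.6 and 92.5 CPM in control, 255, 216, 249.8, 144 and 165 CPM at 24 h and 65.5, 55.1, 78.5, 87.9 and 45.3 CPM at 5 d, so that it was called higher at 24 h (0.69) and lower at 5 d (−0.94 ± 0.22). Treated libraries lay below every control at 5 d.

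Among 19 E2F, DP, MYB and MuvB factors, 10 were called lower and 2 higher (median −0.53, 10.5% higher and 52.6% lower against 18.6% and 17.3% of all genes). The activator E2Fs E2F1 (−1.57) and E2F2 (−2.19) were lower, as were MYBL2 (−2.82), FOXM1 (−2.12), TFDP1 (−0.86), RBBP4 (−0.58) and LIN9 (−0.53). E2F3 (−0.06), E2F4 (0.25), E2F5 (−0.42) and E2F6 (−0.40) were not called. The 2 called higher were LIN37 (0.93), a subunit of the MuvB core, and TFDP2 (0.67), a partner of E2Fs. LIN37 has 1180 exon bases under a gene of the opposite strand.

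The 4 promoter stretches below show where motifs of these factors stand in genes that fell. They were chosen because each holds its motif close to the start, and most promoters of genes called lower hold neither motif. Each is the 120 bases before the RefSeq transcription start on GRCh38.p14, written 5′ to 3′ on the gene's strand. PLK1 and MKI67 show the cell cycle genes homology region (CHR, TTTGAA or TTCGAA), the element to which MuvB binds, in capitals.

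PLK1, chr16:23678769-23678888, plus strand: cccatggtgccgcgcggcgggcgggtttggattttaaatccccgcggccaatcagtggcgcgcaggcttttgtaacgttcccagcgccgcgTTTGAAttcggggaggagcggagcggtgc

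MKI67, chr10:128126424-128126543, minus strand: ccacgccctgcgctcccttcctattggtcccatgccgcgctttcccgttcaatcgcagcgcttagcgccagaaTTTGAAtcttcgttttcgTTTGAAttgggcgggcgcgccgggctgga

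RBL1 and GINS2, a subunit of the replicative helicase, show E2F-type sites in capitals (TTTCGCGC, TTTGGCGC, TTTCCCGC or TTTGCCGC).

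RBL1, chr20:37095998-37096117, minus strand: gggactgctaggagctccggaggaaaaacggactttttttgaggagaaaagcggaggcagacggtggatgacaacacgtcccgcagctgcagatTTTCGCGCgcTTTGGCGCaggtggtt

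GINS2, chr16:85688955-85689074, minus strand: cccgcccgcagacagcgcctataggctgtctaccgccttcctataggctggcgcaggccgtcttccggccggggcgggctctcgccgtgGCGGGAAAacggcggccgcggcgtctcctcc

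The CHR of PLK1 begins 29 bases before the start and those of MKI67 begin 47 and 29 bases before it. The E2F-type sites of RBL1 begin 26 and 16 bases before the start and do not overlap, and that of GINS2, read on the opposite strand, begins 31 bases before it. Motifs were searched on both strands in the 250 bases before the start, in 1 promoter a gene, which RefSeq gave for 10974 of the 14547 tested genes. An E2F-type site was present in 6.75% of promoters of genes called lower, 2.6% of those called higher and 4.43% of all. A CHR was present in 12.8%, 8% and 9.23%. By list, E2F-type sites were found in 13 of 48 promoters of origin and fork genes (27.1%), and CHRs in 31 of 70 promoters of kinetochore, spindle and cytokinesis genes (44.3%). Not every list followed its calls. Nucleotide supply genes, mostly called lower, held E2F-type sites in 1 of 26 promoters (3.85%). Cytosolic ribosomal protein genes, of which 0 were called lower, held CHRs in 9 of 53 (17%). The CRE (TGACGTCA) was held by 2.83%, 2.8% and 2.94% of promoters of lower, higher and all genes, and the E-box CAGCTG by 13.4%, 14.3% and 12.9%. These are counts of letters, not of bound sites.

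In lists of genes of the dividing cell, most members were called lower. Of 84 kinetochore, spindle and cytokinesis genes, 82 were called lower and 0 higher (median −1.73), and of 56 genes of origin licensing and the replication fork, 53 and 0 (median −1.30). ORC1, which marks origins, fell by 2.34 ± 0.19 and GINS2 by 2.30 ± 0.26 on the log2 scale. Of the 15 cyclins E, A and B with their kinases and phosphatases, 13 were called lower (median −1.84), led by CCNA2 and by CCNE2 (−2.61 ± 0.37), whereas CCNE1 (−0.23) and CKS1B (−0.39) were not called. Nucleotide supply gave 20 lower of 30 (median −0.72), with TYMS, thymidylate synthase, at 322, 291, 333, 313 and 348 CPM in control and 13.1, 25.7, 58.9, 59.3 and 84.7 CPM at 5 d (−2.74 ± 0.36, adjusted p 1.2e-05). DNA repair and checkpoint genes gave 32 lower of 47 (median −0.77), among them FANCA (−2.02) and BARD1 (−1.92). The background for these counts is the 17.3% of all genes called lower.

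These lists differed among treated libraries more than among controls. The mean log2 CPM of the kinetochore list was 6.74, 6.47, 6.63, 6.63 and 6.70 in controls 1 to 5, 4.10, 3.87, 3.93, 4.32 and 4.18 at 24 h and 4.05, 4.63, 5.01, 5.21 and 5.37 in treated libraries 1 to 5. Treated replicate 1 lay within the range of the 24 h libraries, and the other 4 lay between that range and control. Origin and fork genes, too, were lowest in treated replicate 1 and highest in replicate 5, at 4.70, 5.04, 5.35, 5.33 and 5.68 against 6.44 to 6.61 in control. Compared with 24 h directly, 66 of 84 kinetochore genes, 25 of 56 origin and fork genes and 10 of 15 cyclins and their partners were called higher at 5 d, where 10.5% of all tested genes were called higher and 6.23% lower. Nucleotide supply gave 3 higher and 3 lower of 30, and repair and checkpoint genes 14 and 0 of 47. Medians against control were −2.62 at 24 h and −1.73 at 5 d for the kinetochore list, on the same controls.

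**Figure D3:**
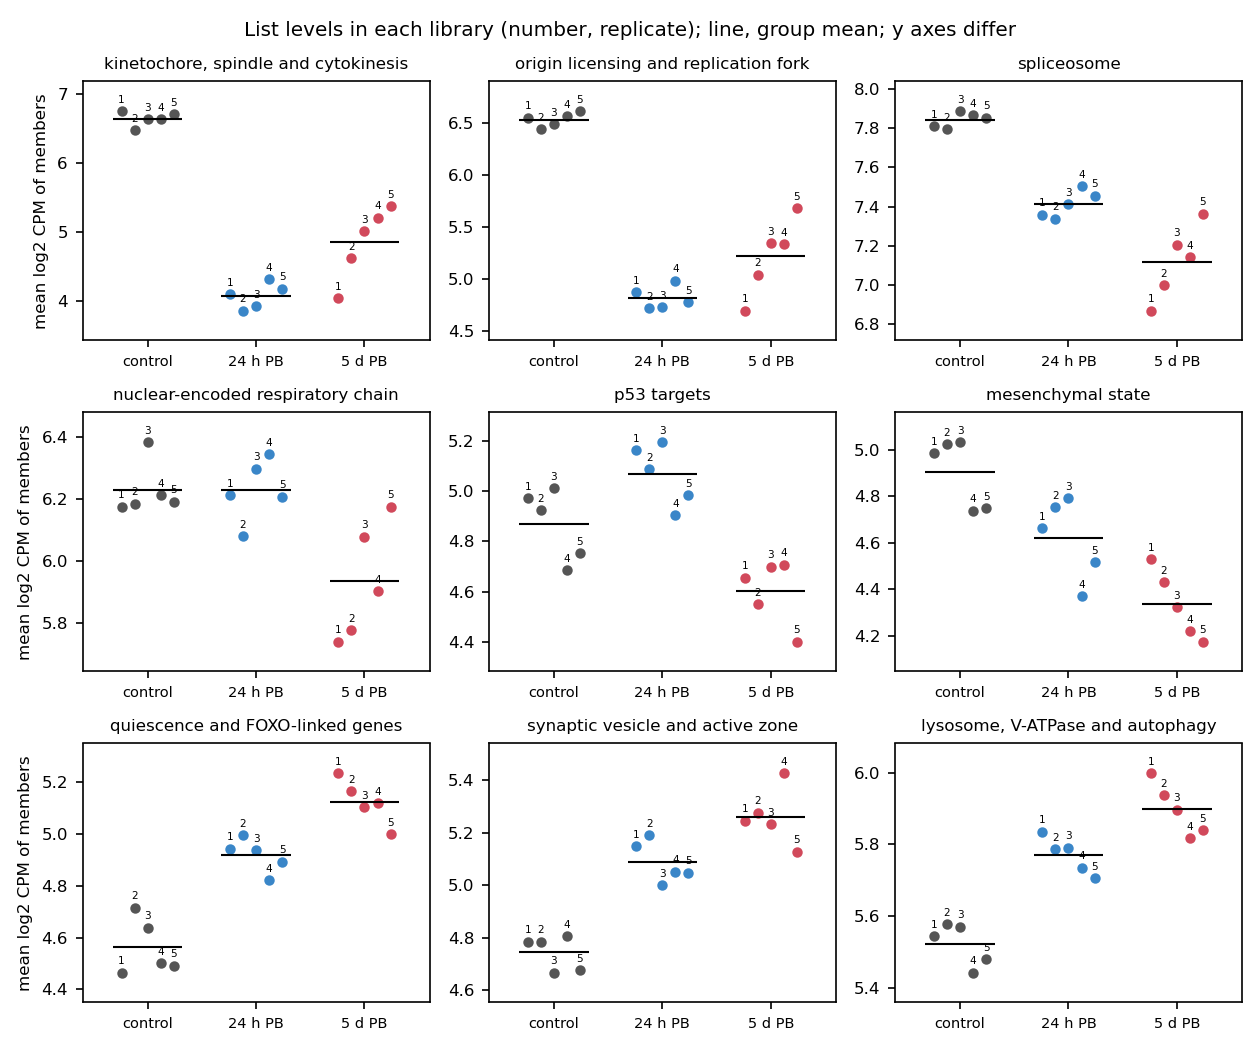
Mean log2 CPM over the tested members of 9 gene lists in each library (numbers are replicates, lines group means, y axes differ). The kinetochore list runs from 4.05 to 5.37 across 5 d libraries against 6.47 to 6.74 in control, and the synaptic and lysosomal lists lie above control in every treated library.

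Genes linked to growth arrest were called higher more often than lower. Of 32 quiescence and FOXO-linked genes, 19 were called higher and 3 lower (median 0.86, 59.4% higher and 9.38% lower against 18.6% and 17.3% of all genes). They included YPEL2 (2.01 ± 0.21) and YPEL5 (1.60 ± 0.12) of the yippee family, DYRK1B (1.58), a kinase of quiescent cells, the MYC antagonist MXD4 (1.51), BTG1 (1.40), TXNIP (1.12) and the FOXO factors FOXO3 (0.98), FOXO4 (0.78) and FOXO6 (1.18). The 3 called lower were MXD3 (−1.88), GAS1 (−1.54) and KLF6 (−0.64). MXD3 has 1148 exon bases under a gene of the opposite strand. The list level was 4.47, 4.72, 4.64, 4.50 and 4.49 in control and 5.24, 5.17, 5.11, 5.12 and 5.0 at 5 d, and the groups did not overlap.

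Targets of p53 were compared at both times, on shared controls. Of 38, 4 were called higher and 12 lower at 5 d (median −0.27, 10.5% higher and 31.6% lower against 18.6% and 17.3% of all genes), compared with 9 higher and 2 lower at 24 h (median 0.26), where 10.5% of all genes were called higher and 11% lower. Set against 24 h directly, 16 were called lower at 5 d and 0 higher, where 6.23% and 10.5% of all genes were. TP53I3, a quinone reductase, stood at 85.3, 40.4, 64.7, 39.1 and 54.8 CPM in control and 14.03, 10.2, 10.2, 10.6 and 16.02 CPM at 5 d (−2.22 ± 0.26, adjusted p 3.3e-06), while at 24 h its log2 fold change was −0.03. The death receptors FAS (−1.60) and TNFRSF10A (−1.40), GADD45A (−1.04), PMAIP1 (−0.97) and the p53 inhibitor MDM2 (−0.72) fell as well. Those that rose were TP53INP1 (1.24), BBC3 (0.79), which encodes PUMA, CCNG2 (0.63) and ZMAT3 (0.57). Of 17 tested genes in the list for the secretory phenotype of senescent cells, 0 were called higher and 9 lower (median −0.63, 0% higher and 52.9% lower). Without treated replicate 4, 1 was called higher. CCL2, a chemokine, fell by 2.71 ± 0.59, and IGFBP3 by 1.45 ± 0.30. LMNB1, a nuclear lamin that is in the list because it is lost in senescence, went from 311, 271, 314, 303 and 285 CPM to 34.1, 47.1, 72.3, 80.6 and 95.4 CPM (−2.17 ± 0.21, adjusted p 4.2e-07). It is counted among the 9 called lower, although it is not a secreted protein.

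**Figure D4:**
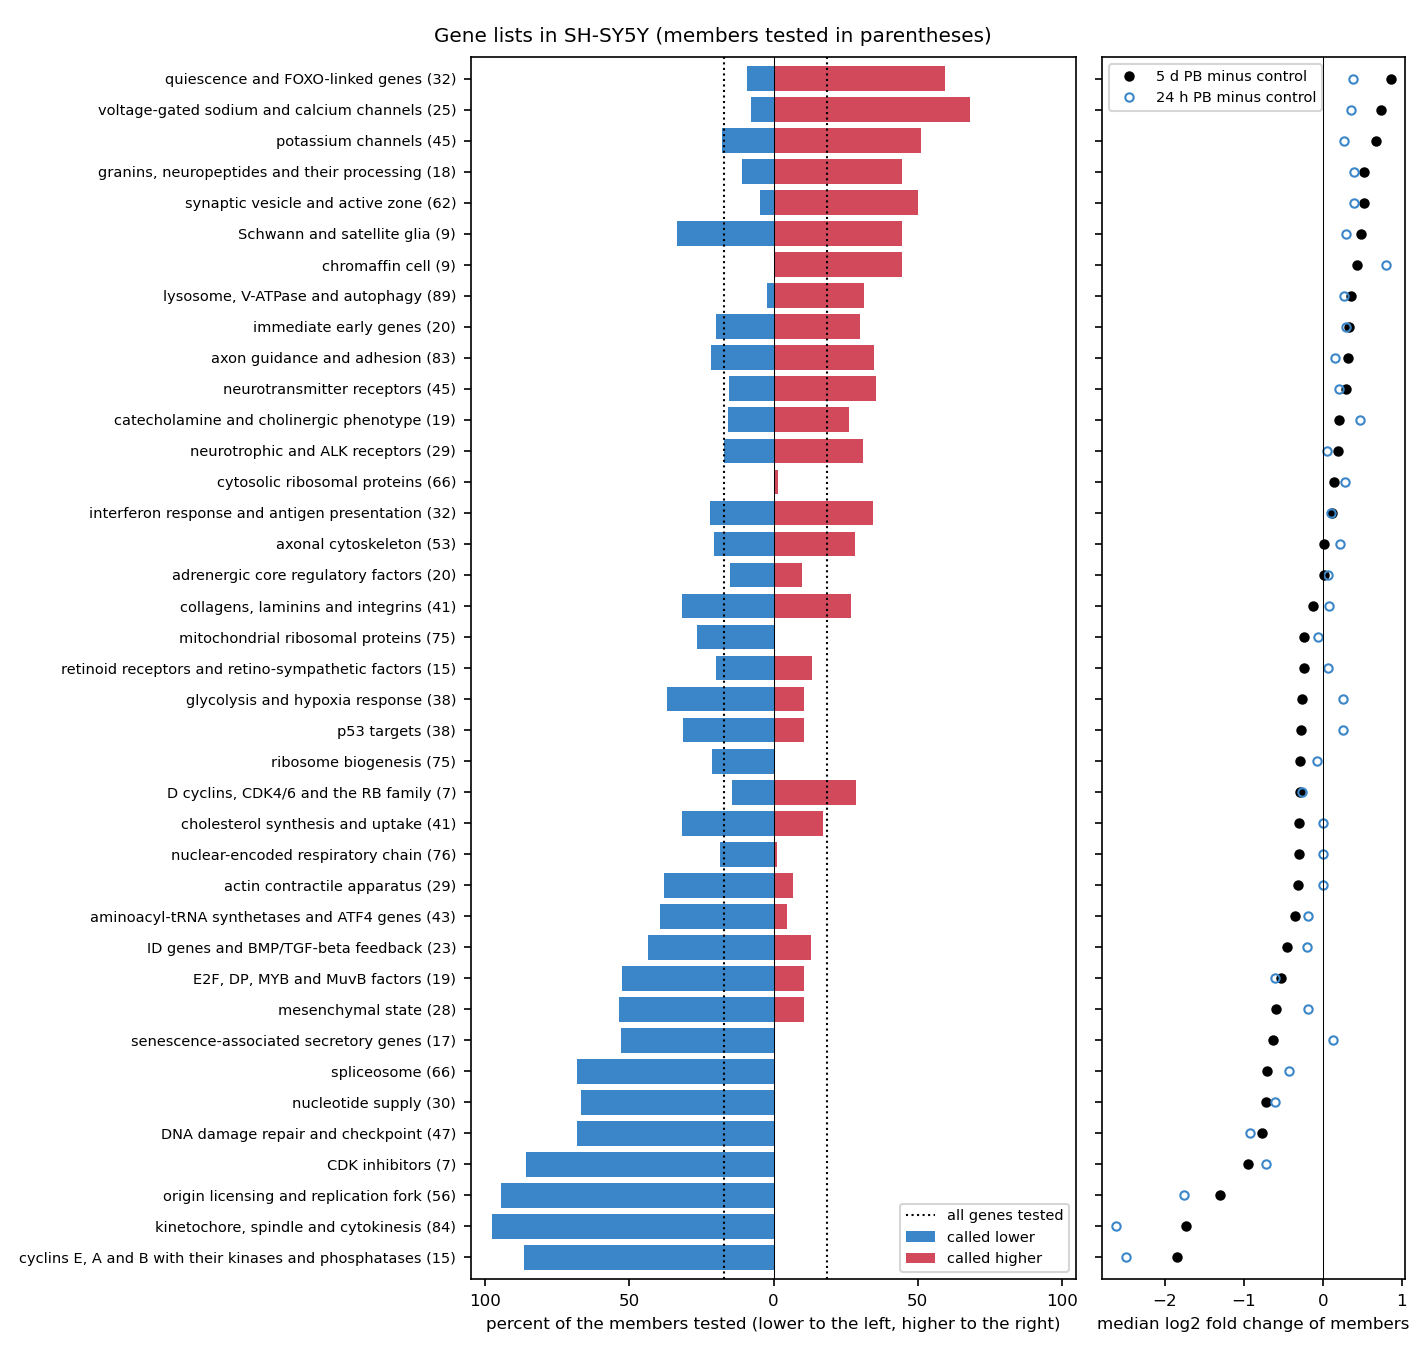
Share of tested members called lower (blue, to the left) and higher (red, to the right) at 5 d in each of 39 gene lists, with dotted lines at the 18.6% and 17.3% of all genes called higher and lower. The right panel gives the median log2 fold change against control at 5 d (filled) and at 24 h (open), which share their controls. The cyclin and kinetochore lists have the lowest medians (−1.84 and −1.73).

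Transcription factors of the adrenergic core circuit were mostly within the limits. Of 20 tested, 2 were called higher, TFAP2B (0.60) and ISL1 (0.57), and 3 lower, among them SOX11 (−1.42) and SIX3 (−0.96) (median 0.01, 10% higher and 15% lower against 18.6% and 17.3% of all genes). HAND2 (−0.01 ± 0.08), GATA3 (−0.42 ± 0.10) and MYCN (0.27 ± 0.25) were not called. GATA3 passed the limit without treated replicate 5 (−0.54), where the lower count of the list was 5. SOX11 fell by 1.42 ± 0.10 (adjusted p 4.8e-09).

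Of 15 retinoid receptors and retino-sympathetic factors, 2 were called higher, DHRS3 (2.25), a retinal reductase, and SOX4 (0.61), and 3 lower, CRABP1 (−1.42), RXRA (−0.91) and TBX3 (−0.85) (median −0.24, 13.3% higher and 20% lower against 18.6% and 17.3% of all genes). The median was −0.10 without control 2, −0.04 without control 3 and −0.10 with no filter on counts. CRABP1, which binds retinoic acid in the cytoplasm, went from 29.1, 36.3, 45.2, 26.01 and 24.3 CPM to 10.9, 8.95, 13.3, 16.3 and 10.7 CPM without overlap. The receptors RARA (0.11), RARB (0.23) and RARG (0.21) and MEIS1 (−0.24) were not called.

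Of genes of the mesenchymal state, 15 of 28 were called lower and 3 higher (median −0.59, 10.7% higher and 53.6% lower against 18.6% and 17.3% of all genes). SNAI2 (Slug), a repressor of epithelial genes, stood at 7.45, 5.92, 8.34, 7.75 and 11.02 CPM in control and 1.22, 0.863, 1.04, 0.818 and 1.85 CPM at 5 d (−2.81 ± 0.23, adjusted p 1.1e-08), and every treated library lay below every control. WWTR1 (−1.61), SNAI1 (−1.43), PDGFRA (−1.29), FN1 (−1.26), TWIST1 (−1.13), YAP1 (−0.68) and VIM (−0.53) also fell. The 3 called higher were FOSL1 (1.20), DCN (0.96) and NOTCH3 (0.73). Both FOSL1 and DCN lost their calls without treated replicate 1 (0.95 and 0.74), and FOSL1 also without treated replicate 2 (0.999, adjusted p 0.054). Without treated replicate 1 the higher count was thus 1. WWTR1 has 756 exon bases under its antisense gene.

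Marker sums for other cells were as follows. Those of 10 mesenchymal-type or fibroblast markers found in the counts, of 12 listed, summed to 1120 to 1480 CPM in control and 750 to 992 CPM at 5 d. Of 7 glial markers, 6 were in the counts and summed to 2.86 to 4.04 and 2.64 to 5.45 CPM, with CDH19 at 0 in all 10 libraries and FOXD3 at 0 in every control. The 5 chromaffin markers summed to 736 to 1140 and 2040 to 3290 CPM, nearly all of it CHGA and SLC18A1. PENK was at 0 throughout. Of 9 tested genes in a wider chromaffin list, 4 were called higher, DGKK (3.76), CHGB (2.67), SCG2 (2.07) and CHGA (1.66), and 0 lower (median 0.44, or 0.68 with no filter on counts, 44.4% higher and 0% lower against 18.6% and 17.3% of all genes). PNMT, the enzyme that makes adrenaline, was not called (0.14 ± 0.14). The part of other cell types in the results was not tested.

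Of 53 axonal cytoskeleton genes, 15 were called higher and 11 lower (median 0.02, 28.3% higher and 20.8% lower against 18.6% and 17.3% of all genes). Beside STMN4, the spectrin SPTBN4 of axon initial segments rose by 1.59 ± 0.09 and STMN2 by 0.55 ± 0.08. STMN1, the stathmin of dividing cells and neuroblasts, fell by 1.21 ± 0.10 and the kinesin KIF21B by 1.72 ± 0.21. TUBB3, neuronal β-tubulin, was not called (−0.11 ± 0.11), although it was at 24 h (0.54).

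Of 83 axon guidance and adhesion genes, 29 were called higher and 18 lower (median 0.32), with 18.6% and 17.3% as background. NCAM2 rose by 1.92 ± 0.15 and the semaphorin SEMA6C by 1.76 ± 0.12, while SEMA5A fell by 2.75 ± 0.21, as did NRP1, described above.

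Genes of the release machinery were called higher more often than lower. Of 62 synaptic vesicle and active zone genes, 31 were called higher and 3 lower (median 0.52, 50% higher and 4.84% lower against 18.6% and 17.3% of all genes). SYT5, a calcium sensor of dense-core vesicles, stood at 12.2, 12, 10.4, 11.5 and 8.05 CPM in control, 34.5, 35.9, 27.3, 31.8 and 28.6 CPM at 24 h and 81.5, 80.3, 64.7, 66.8 and 52.5 CPM at 5 d (2.67 ± 0.13, adjusted p 7.2e-11). The 3 groups did not overlap. SYNPR (synaptoporin) rose from 0.176 ± 0.0978 to 2.51 ± 1.11 CPM (3.76 ± 0.41, adjusted p 2.9e-07), and SYT9 (2.47), RAB27B (1.56), CADPS (1.46), SYP (1.02), SYN1 (0.85), RAB3A (0.96) and VAMP2 (0.66) rose with them. Those called lower were SNCB (−2.37), β-synuclein, SYT12 (−1.91) and RPH3A (−1.38), and 5 were without treated replicate 4. The list level was 4.67 to 4.81 in control and 5.13 to 5.42 at 5 d.

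Genes of dense-core granules were among those that rose. CHGB, chromogranin B (chr20:5892156-5905999), stood at 353, 589.9, 406, 389 and 259.8 CPM in control and 2126, 2986, 3463, 2443 and 1737 CPM at 5 d (2.67 ± 0.28, adjusted p 9.0e-07). CHGA went from 574, 975, 596, 966 and 666 to 1951, 2214, 3162, 2550.2 and 2071 CPM (1.66 ± 0.19, adjusted p 1.2e-06) and SCG2 rose by 2.07 ± 0.22. For each of CHGB and CHGA, the lowest treated library was above the highest control. Of 18 tested granin, neuropeptide and processing genes, 8 were called higher and 2 lower (median 0.52, 44.4% higher and 11.1% lower against 18.6% and 17.3% of all genes). UCN, urocortin, rose by 2.14 ± 0.18, and the receptor-type phosphatases of granules PTPRN (1.20) and PTPRN2 (1.25) and the amidating enzyme PAM (0.78) were higher. The neuropeptide NMU (−1.91) and NXPH1 (−1.54) were lower, and NPY (0.18 ± 0.28) was not called.

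Among 19 catecholamine and cholinergic genes, 5 were called higher and 3 lower (median 0.21, 26.3% higher and 15.8% lower against 18.6% and 17.3% of all genes). Without control 5, 3 were called higher, and with library sizes alone in place of TMM factors 8. The median was 0.37 without control 2. ACHE, acetylcholinesterase, rose from 9.83, 12.4, 10.7, 7.35 and 4.97 CPM to 78.1, 58.6, 44.97, 44.1 and 24.2 CPM (2.47 ± 0.35, adjusted p 2.3e-05), SLC18A2, the vesicular monoamine transporter VMAT2, by 1.70 ± 0.20, CHAT by 0.97 ± 0.35, MAOA by 0.68 ± 0.08 and SLC18A3, the vesicular acetylcholine transporter, by 0.62 ± 0.19. SLC18A2 has 2326 exon bases under genes of the opposite strand. DDC, which makes dopamine, fell from 163, 186, 173, 178 and 165 CPM to 55, 79.9, 117, 143 and 135 CPM (−0.71 ± 0.19, adjusted p 0.00453), and the tetrahydrobiopterin enzymes PTS (−0.71) and SPR (−0.65) were lower. DBH, which turns dopamine into noradrenaline, stood at 1422, 1744, 1379, 2289 and 1844 CPM in control, 3195, 3559, 2727, 4501 and 3633 CPM at 24 h and 1254, 1763, 1940.0, 2423 and 2023 CPM at 5 d. It was higher at 24 h (1.02) but not called at 5 d (0.12 ± 0.17), where treated and control libraries overlapped.

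Ion channel genes were likewise called higher more often than lower. Of 25 genes named for voltage-gated sodium and calcium channels or their subunits, 17 were called higher and 2 lower (median 0.73, 68% higher and 8% lower against 18.6% and 17.3% of all genes). The higher count was 13 without treated replicate 2 or control 3 and 14 without treated replicate 1. It was 18 without treated replicate 5. CACNA1B, the N-type calcium channel, rose from 28.7 ± 2.27 to 69.5 ± 10.7 CPM (1.27 ± 0.09, adjusted p 4.1e-09) and CACNG8 by 1.40 ± 0.09. SCN4B (−1.32) and CACNG5 (−1.23) were lower. Of 45 potassium channel genes, 23 were called higher and 8 lower (median 0.67, or 0.09 with no filter, 51.1% higher and 17.8% lower). KCNN3, a small-conductance calcium-activated channel, rose by 2.89 ± 0.40, and KCNK5 (−2.26) and KCNJ12 (−2.10) fell. KCNJ2, an inward rectifier, split the treated libraries, at 27.05, 18.9, 8.62, 1.15 and 0.953 CPM against 2.47, 3.04, 3.88, 0.7896 and 1.35 CPM in control. Replicates 1, 2 and 3 were above every control and replicates 4 and 5 were not, and the call (2.30 ± 0.78, adjusted p 0.0188) was lost without replicate 1 (1.69, adjusted p 0.075).

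Of 45 neurotransmitter receptor genes, 16 were called higher and 7 lower (median 0.29, 35.6% higher and 15.6% lower against 18.6% and 17.3% of all genes). The median was 0.18 without treated replicate 4 and 0 with no filter on counts. CHRM3, a muscarinic receptor, rose from 76.4 ± 19.9 to 223 ± 70.8 CPM (1.55 ± 0.27, adjusted p 1.9e-04) and CHRM1 by 1.40 ± 0.30. The metabotropic glutamate receptor GRM2 (−2.16) and the GABA receptor subunit GABRQ (−1.82) fell.

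Of 29 neurotrophic and ALK-type receptor genes with their ligands and feedback inhibitors, 9 were called higher and 5 lower (median 0.19, or 0.01 with no filter, 31% higher and 17.2% lower against 18.6% and 17.3% of all genes). ALK itself was not called (0.19 ± 0.13). The receptors RET (1.11 ± 0.13), NTRK2 (1.73 ± 0.33), ERBB3 (2.15 ± 0.41) and ERBB4 (1.27 ± 0.28) and the inhibitor SPRED3 (2.18 ± 0.16) rose. The 5 called lower were FGFR2 (−3.14), KIT (−2.56), ETV1 (−0.87), ETV4 (−0.63) and NGFR (−0.55). The list written for glial and satellite cells gave 4 higher and 3 lower of 9 tested (median 0.48, 44.4% higher and 33.3% lower). Those higher were ERBB3 (2.15), L1CAM (0.67), S100B (0.62) and MRTFA (0.50), and those lower SOX2 (−2.05), PMP22 (−0.65) and NGFR (−0.55). MRTFA is not particular to glia and stood at the fold limit, so the higher count and the median rest partly on it. Without control 4 or control 5, 2 members of the list were called higher, and with no filter on counts the list median was −0.31.

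Genes of the ID proteins, which block bHLH factors, and of BMP feedback gave 10 called lower and 3 higher of 23 (median −0.45), where 17.3% and 18.6% of all genes were. ID1 went from 129.6, 107, 126, 114 and 141 CPM to 34.6, 31.6, 36.9, 45.2 and 62.01 CPM (−1.56 ± 0.14, adjusted p 1.4e-07). ID2 (−1.08), ID3 (−0.78) and ID4 (−1.49) fell as well, as did the inhibitory SMADs SMAD6 (−2.10) and SMAD7 (−0.82), the BMP antagonist GREM1 (−3.32), BAMBI (−1.93) and BMP2 (−1.16). TGFB1 (1.33 ± 0.18) and the latent TGF-β binding proteins LTBP2 (1.22) and LTBP3 (0.51) rose. Immediate early genes gave 6 higher and 4 lower of 20 (median 0.33, 30% higher and 20% lower), with NR4A3 at 1.44 ± 0.20 and CCN1, EGR3, DUSP2 and IER5 at −1.42, −1.38, −1.12 and −0.75. FOS (−0.09) and EGR1 (0.37) were not called.

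Of 29 actin contractile genes, 11 were called lower and 2 higher (median −0.32, 6.9% higher and 37.9% lower against 18.6% and 17.3% of all genes), with the intermediate filament protein SYNM at −1.36, ACTA2 at −1.26, MYOM1 at 1.55 and TPM2 at 0.99. SYNM and ACTA2 have 2164 and 2018 exon bases under genes of the opposite strand. Collagens, laminins and integrins gave 11 higher, such as ITGA7 (1.90 ± 0.28), and 13 lower, such as LAMA1 (−2.43 ± 0.16) and ITGB3 (−2.19 ± 0.21), of 41 (median −0.12, between −0.23 and −0.02 under the alternatives, 26.8% higher and 31.7% lower). Interferon and antigen presentation genes gave 11 higher and 7 lower of 32 (median 0.12, 34.4% higher and 21.9% lower), and their median lay between −0.09, among genes of at least 1 CPM in 5 libraries, and 0.22, with no filter. Their higher count was 8 without treated replicate 1 or control 4 and 13 without control 1. BST2 rose by 2.42 ± 0.29 and USP18 fell by 1.69 ± 0.24, each at levels of a few CPM.

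Most genes of the spliceosome list were called lower. Of 66 spliceosome genes, 45 were called lower and 0 higher (median −0.70, 0% higher and 68.2% lower against 18.6% and 17.3% of all genes), compared with 25 and 0 at 24 h (median −0.43), where 11% and 10.5% of all genes were. Between the treated times, 8 were called lower at 5 d and 0 higher, with 6.23% and 10.5% of all genes as background. HNRNPM, an hnRNP protein that regulates splicing, stood at 662, 613, 719.9, 694 and 604 CPM in control and 153, 195, 280.5, 225 and 327 CPM at 5 d (−1.48 ± 0.15, adjusted p 2.7e-07), and SRSF1, an SR protein, at 661, 644, 650.3, 671 and 676 and 174, 215, 251, 272 and 321 CPM (−1.42 ± 0.11, adjusted p 1.2e-08). In both, treated replicate 1 was the lowest and replicate 5 the highest of the treated libraries, without reaching control. The list level at 5 d was 6.87, 7.0, 7.21, 7.14 and 7.36 for replicates 1 to 5, against 7.80 to 7.89 in control.

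Where 17.3% of all genes were called lower, ribosome biogenesis gave 16 lower and 0 higher of 75 (21.3% lower, median −0.28), with NCL, nucleolin, at −0.96 ± 0.10 and UTP20 at −1.13 ± 0.09. Without treated replicate 5 the lower count was 25, and 1 gene was called higher without treated replicate 4 or 5 or control 3 or 4. Of 66 cytosolic ribosomal protein genes, only RPS10 was called (0.79, 1.396 CPM in control). That is far below the mean log2 CPM of its list, 8.64 to 9.01 in control, so few reads bear on this call. Without treated replicate 1 the higher count was 3. Mitochondrial ribosomal proteins gave 20 lower and 0 higher of 75 (median −0.23, 0% higher and 26.7% lower), among them MRPL23 (−1.15 ± 0.14). The nuclear-encoded respiratory chain gave 14 lower and 1 higher of 76 (18.4% lower, near the share of all genes, median −0.31), with NDUFA6 at −1.09 ± 0.11. That count rested on single libraries, since it was 8 without treated replicate 1 and 24 without treated replicate 5. ATP5F1E, the one member called higher, overlaps an antisense gene by 1180 exon bases and was lost without replicate 1 (0.49). It had low counted levels, with means of 3.27 CPM in control and 4.94 CPM at 5 d.

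Aminoacyl-tRNA synthetases together with genes of the ATF4 stress response, which include amino acid synthesis and transport, gave 17 lower and 2 higher of 43 (median −0.36, 4.65% higher and 39.5% lower against 18.6% and 17.3% of all genes). PHGDH, the first enzyme of serine synthesis, fell from 187 ± 16.1 to 64.3 ± 15.3 CPM (−1.54 ± 0.14, adjusted p 1.0e-07) and the transporter SLC1A4 by 2.03 ± 0.15, while the stress genes DDIT3 (0.53) and DDIT4 (0.62) rose. DDIT3 dropped under the fold limit without treated replicate 1, control 2 or control 4 (0.44 to 0.49) and DDIT4 without control 1 (0.47), and the list's higher count was 1 without treated replicate 1 and 4 without treated replicate 5. Cholesterol genes gave 13 lower, such as LBR (−1.89 ± 0.13) and INSIG1 (−1.42 ± 0.15), and 7 higher, led by the exporters ABCG1 (2.38 ± 0.19) and ABCA1 (1.98 ± 0.42), of 41 (median −0.30, 17.1% higher and 31.7% lower). Glycolysis and hypoxia genes gave 14 lower and 4 higher of 38 (median −0.27, or −0.18 without control 4, 10.5% higher and 36.8% lower). LDHA, lactate dehydrogenase A, went from 659, 739, 737, 1033 and 918 CPM to 166, 199, 255, 377 and 359.9 CPM (−1.59 ± 0.24, adjusted p 4.3e-05) and EGLN3, an oxygen sensor, fell by 1.71 ± 0.15. The 4 called higher were MXI1 (0.91), ANGPTL4 (0.90), NDRG1 (0.89) and VEGFA (0.70). At 24 h 6 of this list were called higher and 1 lower, where 10.5% and 11% of all genes were.

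Of 89 lysosomal and autophagy genes, 28 were called higher and 2 lower (median 0.35), where 18.6% and 17.3% of all genes were. IDUA, a hydrolase of glycosaminoglycans, rose by 2.25 ± 0.14 and GABARAPL1, of autophagosomes, from 6.04, 7.31, 5.95, 5.13 and 5.72 CPM to 26.1, 23.6, 20.1, 18.6 and 19 CPM (1.83 ± 0.12, adjusted p 8.8e-10). ARSA (1.70), WIPI1 (1.63), MAP1LC3B (0.82), NPC1 (0.60) and TFEB (1.33), the transcription factor of lysosomal genes, rose too. The hydrolases GUSB (−1.05) and ARSB (−0.77) were the 2 called lower. The list level was 5.54, 5.58, 5.57, 5.44 and 5.48 in control and 6.0, 5.94, 5.90, 5.82 and 5.84 at 5 d, without overlap. IDUA has 534 exon bases under a gene of the opposite strand.

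The comparisons of 24 h and of 5 d with control rest on the same 5 control libraries, so each is given on its own. At 24 h, 1530 genes were called higher (10.5%) and 1599 lower (11%), against 2712 and 2513 at 5 d. In the direct comparison of 5 d with 24 h, 1527 genes were called higher at 5 d (10.5%) and 907 lower (6.23%).

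Genes with the largest differences between 5 d and 24 h (5 libraries each) were mostly not called at 24 h. PAPPA2 (5.64), H19 (3.51), CLSTN2 (3.45), CNKSR2 (3.42) and DGKB (2.95) were higher at 5 d. CNKSR2, a synaptic scaffold, fell at 24 h (−1.70) and rose at 5 d against control (1.72 ± 0.27), but 1653 of its exon bases lie under genes of the opposite strand. Lower at 5 d than at 24 h were FLT1 (−4.15), ENC1 (−2.83), ADAMTS2 (−2.39), IGFBP3 (−2.31) and COL6A6 (−2.25). FLT1, a VEGF receptor, stood at 12.9, 6.24, 11.2, 3.85 and 7.88 CPM in control, 14.98, 6.59, 12.2, 4.43 and 10.9 CPM at 24 h and 0.744, 0.216, 0.711, 0.273 and 0.774 CPM at 5 d (−3.94 ± 0.47, adjusted p 3.1e-06 against control). ENC1, an actin-binding protein of neural cells, stood at 315, 204, 233, 233 and 276, then 383, 250.1, 311, 334 and 387, then 29.2, 31.3, 41.6, 67.2 and 64.9 CPM (−2.43 ± 0.23, adjusted p 5.0e-07). In both, control and 24 h libraries overlapped and the 5 d libraries lay below all of them.

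In IMR-32, a MYCN-amplified ADRN line treated for the same time, 5 d PB was set against control in the same way. The response was more positive in SH-SY5Y than in IMR-32 for 1848 genes (11.3% of 16282 tested, interaction in a fit of all 45 libraries) and more negative in SH-SY5Y for 1541 (9.46%). Of the 24 genes with the largest changes in SH-SY5Y, 17 were called different. They were chosen for the size of their change in the same SH-SY5Y libraries, which favours such a difference, so this count is only a description. Log2 fold changes of H19 were 3.84 ± 0.62 in SH-SY5Y and −2.47 ± 0.55 in IMR-32, of NTNG2 3.33 ± 0.36 in SH-SY5Y and −1.74 ± 0.78 in IMR-32 and of NRP1 −3.80 ± 0.30 in SH-SY5Y and 0.78 ± 0.18 in IMR-32, and the differences were H19 (6.31 ± 0.83, adjusted p 2.9e-07), NTNG2 (5.07 ± 0.84, adjusted p 1.1e-05) and NRP1 (−4.58 ± 0.36, adjusted p 3.7e-12). ARHGAP36 gave 2.84 ± 0.52 in SH-SY5Y and −0.02 ± 0.49 in IMR-32, and CLSTN2 3.02 ± 0.46 in SH-SY5Y and 0.17 ± 0.41 in IMR-32. Among the genes chosen for their fall, the differences included MKI67 (−1.91 ± 0.62, adjusted p 0.0161), RRM2 (−1.73 ± 0.61, adjusted p 0.0285) and MYB (−1.85 ± 0.45, adjusted p 0.00156), while that of AURKB was not called. For STMN4, at 2.94 ± 0.41 in SH-SY5Y and 3.39 ± 0.41 in IMR-32, and E2F7, at −2.93 ± 0.40 in SH-SY5Y and −3.14 ± 0.41 in IMR-32, the difference was not called (−0.45 ± 0.55 and 0.22 ± 0.55). For FAM111B and DGKK no difference with a usable error could be estimated. The third line, SK-N-BE(2)C, was treated for 7 d, and its log2 fold changes against control in the same fit follow. H19 stood at −2.47 ± 0.66, NTNG2 at 1.20 ± 0.39, NRP1 at −0.62 ± 0.18, ARHGAP36 at 4.07 ± 0.79 and CLSTN2 at 0.64 ± 0.41. MKI67, RRM2, MYB and AURKB stood at −3.39 ± 0.47, −3.20 ± 0.46, −3.94 ± 0.45 and −3.48 ± 0.39. STMN4 stood at 4.18 ± 0.45 and E2F7 at −5.15 ± 0.49. Differences from this line were not tested.

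**Figure D5:**
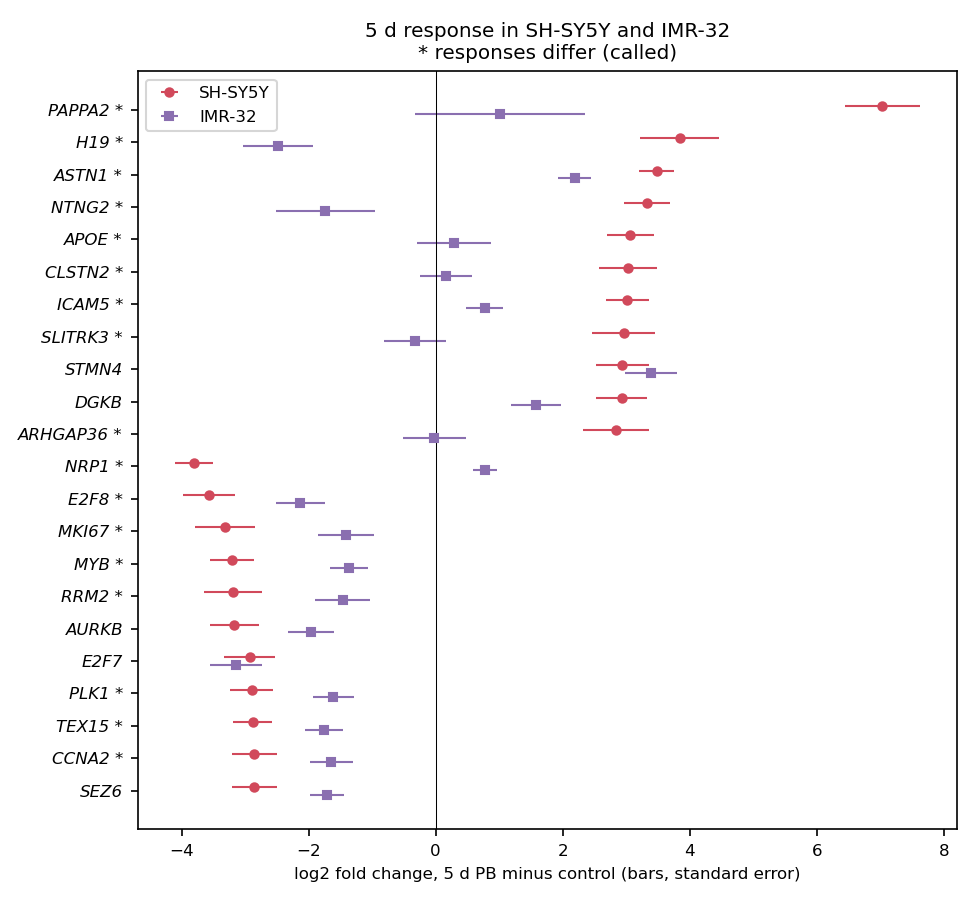
Log2 fold change of 5 d PB minus control with standard error (bars) in SH-SY5Y (circles) and IMR-32 (squares) for 22 of the 24 genes with the largest changes in SH-SY5Y, from the fit of 45 libraries. An asterisk marks the 17 genes whose responses were called different, among them H19 and NTNG2, with values on opposite sides of 0.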

How the data were processed

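Total RNA of SH-SY5Y cells was poly(A)-selected, made into directional paired-end libraries and sequenced on a NovaSeq. The authors trimmed reads (Trim Galore 0.6.4), aligned them to hg19 (STAR 2.6.1d, per the submitters' processing notes) and deposited raw counts per gene, which were used here. They also deposited CPM values and DESeq2 (1.32.0) outputs with fold changes and adjusted p-values, none of which were used.

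In R 4.3.3, the 15 SH-SY5Y libraries were fitted together with edgeR 4.0.16 (limma 3.58.1): TMM factors, filterByExpr (minimum count 10, total 15, proportion 0.7) and the robust quasi-likelihood F test, with Benjamini-Hochberg adjustment over all genes tested. A gene is called at an adjusted p below 0.05 with an absolute log2 fold change over 0.5, the standard error being the log2 fold change divided by the root of F. The comparison with IMR-32 used all 45 libraries and 16282 genes. Scripts were tested on simulated data. Libraries were grouped by their labels, and depth was 16556335 to 23692289 counts.

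Members and lists were chosen with earlier results of these data known. Named genes were the 12 largest rises and falls at a mean of at least 5 CPM without overlap between groups, up to 2 each way in every list at 1 CPM or more, the 5 largest each way against 24 h, and 17 fixed genes of the pathway and lineage. Further genes of the lists were named after their values were seen. Clone, LOC, LINC, antisense and pseudogene symbols were left out of the largest changes. Mitochondrially encoded transcripts were not analysed here, and results for some genes are not reported here.

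Same-numbered 5 d and control libraries deviated together (correlations 0.101, 0.204, 0.228, 0.224 and 0.255 for replicates 1 to 5, though treated replicate 1 correlated better, at 0.202, with a control of another number), so a fit with the number as a block was an alternative. Others were RLE factors, library size alone, no filter, a filter at 1 CPM, the 10 compared libraries alone, DESeq2 1.42.0, other fold limits and each library left out. Positions are from GENCODE on GRCh37 and promoters from RefSeq on GRCh38.p14.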

Additional observations from a re-analysis of the deposited data

Results flagged for a closer look

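In 14 of 394 sets of 5 libraries examined (each gene chosen by the naming rule and each list, in control and in 5 d PB), 1 library stood apart from the other 4 by more than Dixon's critical value of 0.71 of the range. Chance alone gives such a gap in about 1 of 20 sets. In normalised CPM, AURKB was 61.44 in control replicate 2 and 78.8 to 84.5 in the other 4, and GAS1 was 5.952 in 5 d PB replicate 1 and 2.621 to 3.08 in the other 4. SLC18A2 was 14.95 in 5 d PB replicate 4 and 6.749 to 8.522 in the other 4, and CACNG5 was 1.2 in 5 d PB replicate 4 and 0.4265 to 0.6473 in the other 4. CHRM1 was 1.674 in control replicate 5 and 1.116 to 1.277 in the other 4, and GREM1 was 11.48 in control replicate 3 and 3.52 to 5.534 in the other 4. DUSP2 was 6.254 in 5 d PB replicate 5 and 2.073 to 2.427 in the other 4, and TPM2 was 27 in 5 d PB replicate 1 and 16.49 to 19.42 in the other 4. COL26A1 was 5.565 in 5 d PB replicate 4 and 2.967 to 3.649 in the other 4, and DDIT4 was 24.26 in control replicate 1 and 43.91 to 49.59 in the other 4. ANGPTL4 was 10.15 in 5 d PB replicate 4 and 14.24 to 15.36 in the other 4, and CCL2 was 18.23 in control replicate 3 and 5.231 to 8.641 in the other 4. TH was 0.8534 in control replicate 2 and 0.108 to 0.2961 in the other 4. The nuclear-encoded respiratory chain list had a mean log2 CPM of 6.381 in control replicate 3 and 6.175 to 6.213 in the other 4.

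Among the 24 genes with the largest changes in SH-SY5Y, the 5 d response (log2, SH-SY5Y minus IMR-32, edgeR quasi-likelihood test of the interaction) was more positive in SH-SY5Y for PAPPA2 (6.021, adjusted p 0.0367), H19 (6.313, adjusted p 2.9e-07), ASTN1 (1.289, adjusted p 0.00562), NTNG2 (5.068, adjusted p 1.1e-05), APOE (2.772, adjusted p 0.00236), CLSTN2 (2.857, adjusted p 3.6e-04), ICAM5 (2.246, adjusted p 1.5e-04), SLITRK3 (3.282, adjusted p 3.5e-04) and ARHGAP36 (2.861, adjusted p 0.00184). It was more negative for NRP1 (−4.579, adjusted p 3.7e-12), E2F8 (−1.438, adjusted p 0.0402), MKI67 (−1.911, adjusted p 0.0161), MYB (−1.847, adjusted p 0.00156), RRM2 (−1.725, adjusted p 0.0285), PLK1 (−1.282, adjusted p 0.0267), TEX15 (−1.119, adjusted p 0.0375) and CCNA2 (−1.21, adjusted p 0.0496). These genes were chosen for their change in the same SH-SY5Y libraries, which favours a difference.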

How the results depend on the processing

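At 5 d against control, 9516 genes passed an adjusted p of 0.05 with no fold limit and 2101 with a log2 fold change beyond 1, and against 24 h 6331 and 826. DESeq2 called 5237 and 2456 genes, and each library left out in turn gave 4941 to 5580 and 2227 to 2755. No call was reversed. Of 158 named genes, 149 had the same call under every alternative that kept the fold limit, and the others changed theirs under at least 1, with values for those named in the report. Of 680 list medians under alternatives, 654 moved by less than 1 SD between replicates. With library sizes alone in place of TMM factors, medians moved to 0.07996 for all genes tested, 0.09085 for axonal cytoskeleton, 0.3573 for neurotransmitter receptors, −0.2502 for actin contractile apparatus and −0.2289 for cholesterol synthesis and uptake. With every gene that had a count, medians moved to 0 for all genes tested, −0.09618 for retinoid receptors and retino-sympathetic factors, −0.3126 for Schwann and satellite glia, 0.6752 for chromaffin cell, 0.3324 for catecholamine and cholinergic phenotype, 0.08994 for potassium channels, 0 for neurotransmitter receptors, 0.007495 for neurotrophic and ALK receptors and −0.3019 for ID genes and BMP/TGF-beta feedback. With genes of at least 1 CPM in 5 libraries, medians moved to 0.6443 for granins, neuropeptides and their processing, 0.2174 for neurotransmitter receptors and −0.08962 for interferon response and antigen presentation. With the 10 compared libraries alone, medians moved to 0.3332 for catecholamine and cholinergic phenotype. Leaving out each library in turn gave medians of −0.241 to −0.03706 for retinoid receptors and retino-sympathetic factors, 0.2074 to 0.3717 for catecholamine and cholinergic phenotype, 0.1763 to 0.3383 for neurotransmitter receptors and −0.6246 to −0.3293 for ID genes and BMP/TGF-beta feedback. Causes of these shifts were not tested, except that filters change which members count.

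With the replicate number as a block (replicate block), 5314 genes were called at 5 d against control in place of 5225, 2534 in place of 2434 against 24 h, and 3893 in place of 3389 for the difference from IMR-32. The block changed no call of a named gene. Without IMR-32 replicate 5, 3737 genes differed between the lines. Counts of genes called lower in the respiratory chain list ranged from 8 to 24 over the libraries left out. The number of libraries and their depth limit what can be seen among genes of a few counts.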
